A study of Mus musculus with 4 samples.

Results

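The cytosolic ribosomal proteins are the protein subunits of the ribosome that translates nuclear-encoded mRNAs, and their transcripts were followed here in lung group 2 innate lymphoid cells (ILC2s). Genes were taken by name from the deposited tables: symbols beginning with Rpl or Rps, followed by a number and at most a short copy suffix, or by the names of the stalk proteins and of Rpsa. This took 87 of 55401 gene models, 54 of the large and 33 of the small subunit. GENCODE annotates 83 of them as protein coding. The name rule was meant to leave pseudogenes out, but Rps4l, Rps12l1, Rpl6l and Rpl32l are annotated as pseudogenes and were kept and marked as such. Subunit proteins with other names (such as Fau, Rack1 and Rps3a1) fell outside the rule and are given separately.

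ILC2s came from the lungs of C57BL/6 mice and were kept under stimulation for 6 h. One group received IL-33, an epithelial alarmin, and the other IL-33 plus Ang II, short for angiotensin II, the peptide through which the renin-angiotensin system acts on its receptors. IL-33 was thus present in both, no library shows the resting state, and the second group is called Ang II for short. Each group had 2 libraries by the labels, each made from 500 cells by SMARTer cDNA synthesis and PCR amplification. The question was what Ang II adds to the IL-33 response. The unit, FPKM, divides fragment numbers by transcript length and by the mapped total, and so compares genes per length. No counts came with them, so the depth behind a value is unknown.

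Ribosomal proteins are made in matched amounts, and surplus copies of single proteins are degraded. Their mRNAs begin with a run of pyrimidines, the 5′ TOP tract, through which mTORC1 and its target Larp1 control their translation, so that protein output can change while the mRNA level does not. In lymphocytes, activation raises ribosome production ahead of growth and division.

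Differences within each pair were set against counting noise over genes of low level, at the depth that low values of the IL-33 libraries imply. Low values of the Ang II libraries imply a lower depth, at which the Ang II factor would be smaller. That value was not computed. At the IL-33 depth the factor was 13.6 for the Ang II pair, and the 2 IL-33 libraries differed by 1.02 times counting noise. The IL-33 pair may thus be 1 library deposited more than once, in which case values that count both as replicates understate the error. It entered as its mean, 1 sample, and the error of each comparison comes from the 2 Ang II libraries. Whether libraries stem from different mice or cultures is not labelled, and p-values here reflect only the spread among these samples, possibly technical. Sums over marker lists of other cell types were lower after Ang II, except for B cells, where the groups overlapped. Whether these transcripts came from other cells or from the ILC2s was not tested. Summed FPKM of 8 red blood cell markers was 25149 and 24946 after IL-33 against 3835 and 1594 after Ang II, and 15 T cell markers summed to 1437 and 1433 against 1074 and 474. Sums over 15 macrophage, monocyte and dendritic cell markers were 2360 and 2328 against 2064 and 1002 (Itgax was listed at 0 in every library), over 10 epithelial markers 388 and 378 against 80.1 and 206 (Krt8, Krt18 and Sftpb at 0), and over 8 B cell markers 21.2 and 18.7 against 93.6 and 3.35. Lower in both Ang II libraries were 12 of 13 tested genes in the T cell list and 7 of 10 in the myeloid list. In the epithelial and red cell lists it was 5 of 6 each, in the B cell list 0 of 2, and over all genes tested 33.5%. The largest part of the myeloid sum was Lyz2, at 1700 and 1668 FPKM after IL-33 against 1016 and 683 FPKM. Marco (0 and 0 against 191 and 23.2 FPKM) and Ccr2 were higher in both. Chil3 overlapped, at 212 and 210 against 696 and 158 FPKM. The myeloid sum without Lyz2 was not computed. The 16 ILC2 markers, led by Calca, Id2, Arg1 and Klrg1, summed to 4379 and 4406 after IL-33 and to 6225 and 5529 after Ang II. Without Calca and Areg, left out after their values were seen, the other 14 summed to 2383 and 2403 against 2476 and 2048, with overlap. Single markers differed more than this sum. Of the 15 tested ILC2 markers, 5 were higher in both Ang II libraries and 1 was lower. The lower one was Il13, at 70.05 and 73.7 FPKM after IL-33 against 16.3 and 0.53 FPKM. Thy1 was at most 0.09 FPKM in any library. The part of these other cells in the values below was not tested, and in bulk samples fewer cells of a type and less RNA per cell cannot be told apart.

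Start-site sequences are shown for 5 genes to which the results return: Rpl22l1, whose transcript differed most, its paralog Rpl22, Rpl41, which was lower after Ang II, and Rps26 and Rps24 of the small subunit, which were higher. Each window runs from 60 bases before to 20 bases after a start site in the RefSeq promoter table (GRCm38.p6). They lie at chr3:28805448-28805527 on the plus strand, chr4:152325666-152325745 on the plus strand (the first of 2 listed starts), chr10:128549149-128549228 on the minus strand, chr10:128626487-128626566 on the minus strand and chr14:24490618-24490697 on the plus strand (the first of 2 listed starts). Capitals mark runs of 8 or more C or T on the sense strand and the motif CGGAAG or its reverse complement, the core that ETS factors such as Gabpa bind.
Rpl22l1: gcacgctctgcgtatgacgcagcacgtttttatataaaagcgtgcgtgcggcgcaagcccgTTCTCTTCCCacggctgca
Rpl22: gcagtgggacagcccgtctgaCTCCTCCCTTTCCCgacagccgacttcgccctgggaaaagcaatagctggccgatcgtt
Rpl41: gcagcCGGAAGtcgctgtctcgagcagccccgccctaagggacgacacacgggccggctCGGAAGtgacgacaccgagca
Rps26: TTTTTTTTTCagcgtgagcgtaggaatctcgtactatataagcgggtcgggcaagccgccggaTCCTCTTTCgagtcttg
Rps24: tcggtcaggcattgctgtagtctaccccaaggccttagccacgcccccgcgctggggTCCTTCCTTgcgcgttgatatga

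Rpl22l1, Rps26 and Rps24 each carry a pyrimidine run at or beside the listed start, the place of a TOP tract. In Rpl22 the run lies upstream of the listed start, and Rpl41 has 2 copies of CGGAAG and no such run. Of the 87 genes, 64 had an entry in the promoter table by symbol, too few for a comparison with other genes, so the shares are descriptions only. A gene was counted if any of its listed starts had the motif. Within 30 bases of a start, 36 of the 64 genes (56.2%) held a run of at least 8 C or T. The share was 25.8% of 27025 genes in the promoter table and 24.3% of the 5961 tested genes listed there. CGGAAG on either strand of the 300-base promoter was found in 42 of 64 (65.6%), against 18.8% of all genes in that table and 39.1% of tested genes. The GC box GGGCGG was found in 39 of 64 (60.9%), against 38.2% and 66.8%, and AAGATGGC, the core of a Yy1 site, in 6 of 64 (9.38%), against 3.19% and 6.04%.

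Ribosomal protein transcripts were abundant in all 4 libraries and differed between the groups by less than most genes. Of the 87 genes, 82 had a mean of at least 1 FPKM (51 large, 31 small) and entered the test with 9215 genes in all. Their values ran from 2.68 FPKM (Rpl32l after Ang II) to 1204 FPKM (Rpl36 after Ang II), and 35 genes were above 100 FPKM in every library. The other 5 were at or near 0: Rpl10l, Rpl39l and Rpl3l, copies known from testis (Rpl10l, Rpl39l) and striated muscle (Rpl3l), and the pseudogene Rps12l1 were listed at 0 in every library, and Rps4l reached 0.07 FPKM in 1 Ang II library. By limma on log2(FPKM + 1), IL-33 plus Ang II against IL-33, 0 of the 82 reached an adjusted p under 0.05 (0 of 9215 tested genes, 0.0%). At an unadjusted p under 0.05 there was 1 of 82 (Rpl22l1, 1.22%), against 13.6% of all genes tested. When both IL-33 libraries were counted as replicates, 3 of 82 (3.66%) passed the adjusted threshold, against 16.8% of all genes tested.

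Fold changes of the ribosomal protein genes were small. The median size of the log2 fold change was 0.32 over the 82 genes and 1.32 over all genes tested. In 7 of the 82 (8.54%) it reached 1, a 2-fold difference, against 61.6% of all genes tested, and the 7 were Rpl22l1, Rpl27a, Rpl36 and Rps24 with higher and Rpl30, Rpl18 and Rpl3 with lower means. Among the 2622 tested genes averaging 20 FPKM or more the share was 36.5%, and among the 76 ribosomal protein genes past that floor it was 9.21%. The 78 tested mitochondrial ribosomal proteins, which serve the organelle's own translation and lie at lower levels, reached it in 43 cases (55.1%), with a median size of 1.12. The floor of 20 FPKM does not match levels, as the median of the 82 genes was 105 to 127 FPKM in the libraries. Small differences also occurred in other abundant genes. The log2 fold change was 0.23 in B2m, -0.53 in Actb, -0.07 in Eno1 and 0.07 in Ldha, but -1.79 in Hprt. Whether genes of equal level differed as little as ribosomal protein genes was not tested. Since all of these genes come from the same libraries, the comparison between sets is a description.

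**Figure D1:**
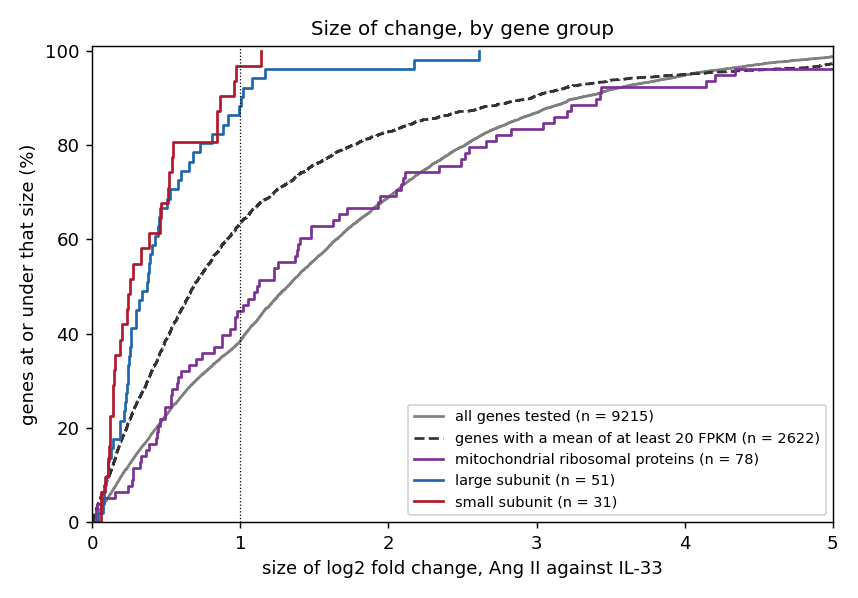
Cumulative share of genes (y axis, percent) at or under a given size of log2 fold change between IL-33 plus Ang II and IL-33 (x axis, shown up to 5), for the large and small subunit, mitochondrial ribosomal proteins, genes of at least 20 FPKM and all genes tested. The dotted line marks a 2-fold difference: 61.6% of all genes tested lie at or beyond it, and 8.54% of the cytosolic ribosomal protein genes.

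The same held between libraries of 1 group. The Ang II libraries differed by a median of 0.48 on the log2 scale over the 82 genes, against 1.22 over all genes tested, 0.72 over genes of at least 20 FPKM and 0.99 over mitochondrial ribosomal proteins. The IL-33 libraries differed by a median of 0.05 in the ribosomal protein genes and 0.05 in all genes tested. A difference of 2-fold or more between the Ang II libraries occurred in 15 of the 82 genes (18.3%) and in 55.0% of all genes tested, and in 0 of the 82 between the IL-33 libraries. There the widest gap was in Rpl15, at 97.4 and 154 FPKM. Of the 82 genes, 55 were higher in Ang II replicate 1 and 27 in replicate 2. Across genes, which are not independent replicates, Pearson's r of log2 levels between an IL-33 and an Ang II library was 0.88 to 0.92 for the ribosomal protein genes, 0.56 to 0.57 for all genes tested and 0.35 to 0.43 for mitochondrial ribosomal proteins.

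**Figure D2:**
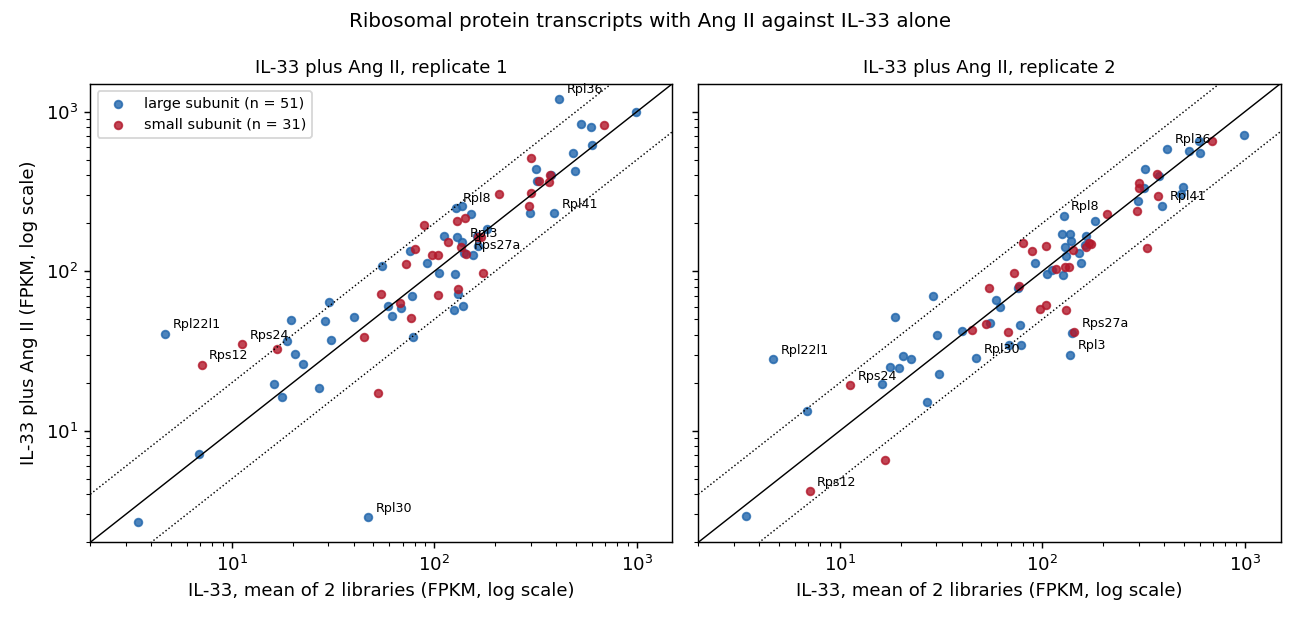
FPKM of the 82 tested ribosomal protein genes in each Ang II library (y axis, log scale) against the mean of the IL-33 libraries (x axis, log scale), coloured by subunit. The solid line marks equal values and the dotted lines 2-fold differences; most genes lie between the dotted lines, with Rpl22l1 above them in both libraries and Rpl30 far below them in replicate 1.

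Neither subunit moved as a block. Over the 51 large-subunit genes the median log2 fold change was 0.10, with quartiles of -0.36 and 0.34 and a range from -2.17 to 2.61. For the 31 small-subunit genes the median was -0.11, with quartiles of -0.24 and 0.31 and a range from -0.97 to 1.14. The median over all genes tested was -0.0037. Taken for each Ang II library alone, the large-subunit median was 0.08 and 0.05, and the small-subunit median was 0.16 in replicate 1 and -0.16 in replicate 2, so its sign differed between the libraries. Rescaling the libraries to equal FPKM sums raised the median of all genes tested to 0.16 and the large-subunit median to 0.18.

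Both Ang II libraries lay above both IL-33 libraries in 28 of the 82 genes (34.1%, against 24.4% of all genes tested) and below both in 23 (28.0%, against 33.5%). The large subunit had 20 genes above, 15 below and 16 overlapping, and the small subunit 8, 8 and 15. The split depended on the scaling: with libraries rescaled to equal FPKM sums it was 32 above and 17 below (22 and 11 large, 10 and 6 small), against 26.5% and 31.8% of all genes tested. With median-ratio scaling it was 24 above and 28 below, against 23.7% and 34.9%. Under the deposited values and all 3 rescalings, 24 of the 28 stayed above and 17 of the 23 stayed below.

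Summed over all members, ribosomal protein transcripts made up 3.29% and 3.21% of the FPKM total after IL-33 and 3.83% and 3.31% after Ang II. Both Ang II values were the higher ones, the second by little (exact permutation test, two-sided, p = 0.333 for 2 against 2, the smallest this design can give, and 0.667 taking IL-33 as 1 sample). Haemoglobin genes took 5.83% and 5.78% of the total after IL-33 but 0.897% and 0.401% after Ang II. Without them the share was 3.49% and 3.40% against 3.86% and 3.32%, and the groups overlapped. Large-subunit genes accounted for 2.10%, 2.05%, 2.47% and 2.14% of the total in the order IL-33 replicates 1 and 2, Ang II replicates 1 and 2, the order used below wherever 4 values are listed, and small-subunit genes for 1.185%, 1.16%, 1.36% and 1.17%.

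The ratio of large- to small-subunit summed FPKM was 1.77, 1.77, 1.82 and 1.83. The groups did not overlap in this ratio, which no rescaling of a library can alter (exact permutation test, two-sided, p = 0.333, the smallest possible). When each tested member was left out in turn, an alternative chosen after seeing the values, the groups stayed apart for 80 members and overlapped for 2. Without Rpl36 the ratio was 1.69, 1.69, 1.61 and 1.70, and without Rps27l it was 1.90, 1.89, 1.94 and 1.89. By medians the order was the other way. The large-subunit median log2(FPKM + 1) minus the small-subunit median was -0.18, -0.03, -0.34 and -0.16 (exact permutation test, two-sided, p = 0.667). The Ang II minus IL-33 difference of this quantity was -0.14, with overlapping groups, and it was -0.0011 when rows named as pseudogenes were added to their genes.

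**Figure D3:**
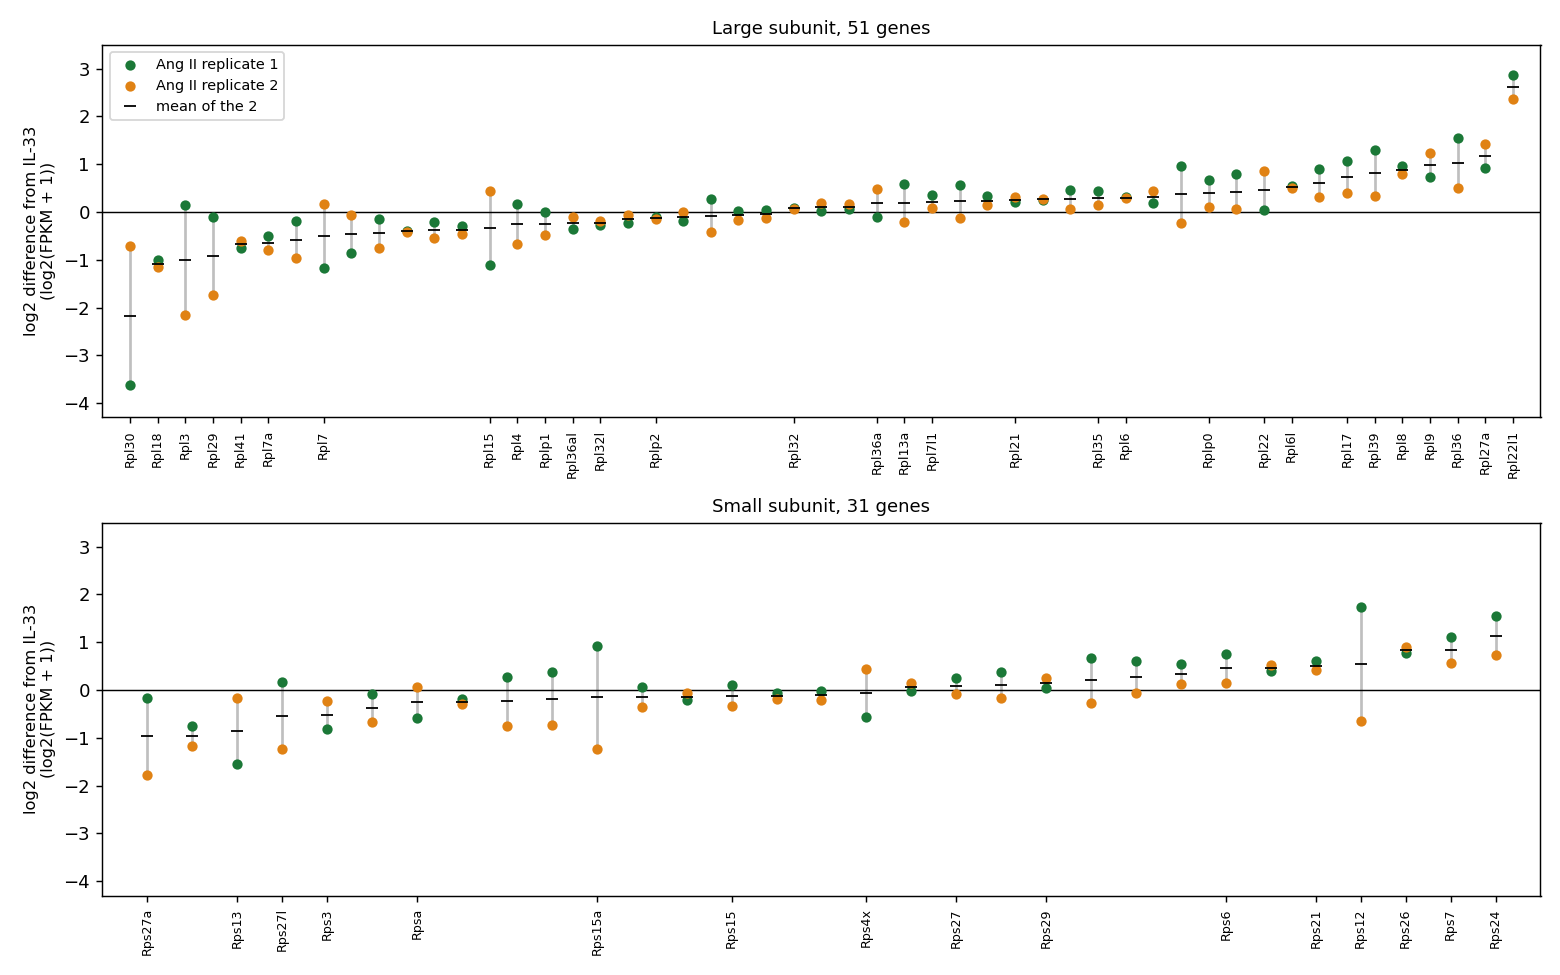
Log2 difference from IL-33 on the log2(FPKM + 1) scale (y axis) for every tested gene of the large (top, 51 genes) and small subunit (bottom, 31 genes), ordered by the mean of the 2 Ang II libraries (dash), with each Ang II library as a point and names for genes described in the text. Rpl22l1 stands above all others with both points over 2, while the wide bars of Rpl30, Rpl3 and Rps12 show Ang II libraries that differ from each other.

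Rpl22l1 (ENSMUSG00000039221, GRCm38 chr3:28805436-28807424) had the largest difference of any ribosomal protein gene. Its levels were 4.75 and 4.61 FPKM after IL-33 and 40.7 and 28.0 FPKM after Ang II. Both Ang II values lay far above both IL-33 values, by 8.69-fold and 5.99-fold over the IL-33 mean. The log2 fold change was 2.61 ± 0.53 (SE), with a limma adjusted p of 0.358 taking IL-33 as 1 sample and 0.0234 with both IL-33 libraries as replicates; over the other alternatives that gave a test it ran from 0.143 to 0.559. Rpl22l1 is the paralog of Rpl22, an RNA-binding protein of the large subunit that is needed for the development of alpha-beta T cells and that lowers Rpl22l1 expression in several cell types. Rpl22 was listed at 6.72, 7.10, 7.16 and 13.3 FPKM, so 1 Ang II library was near the IL-33 values and the other above them. Its log2 fold change was 0.45, and its groups overlapped once libraries were rescaled by median ratio or without haemoglobin genes. Rpl22l1 took 41.4% and 39.4% of the summed FPKM of the pair after IL-33 and 85.0% and 67.8% after Ang II. The 2 coding sequences are 66.9% identical, and the 3 pseudogene rows that copy Rpl22l1 held at most 2.20 FPKM in a library.

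Rpl8, a protein beside the peptidyl transferase centre, was the other large-subunit gene that was higher after Ang II and passed the adjusted threshold with both IL-33 libraries as replicates. It stood at 129 and 127 FPKM after IL-33 and at 250.15 and 224 FPKM after Ang II, with no overlap. The log2 fold change was 0.88 ± 0.21 (SE; adjusted p = 0.409 by limma taking IL-33 as 1 sample, 0.0400 with both IL-33 libraries as replicates). No pseudogene row copied the Rpl8 coding sequence.

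Other large-subunit genes with a large positive log2 fold change passed the adjusted threshold under none of the settings run. Rpl27a, a core protein of the subunit, had 19.6 and 17.9 FPKM after IL-33 and 36.5 and 51.8 FPKM after Ang II (log2 fold change 1.17 ± 0.46 SE, limma adjusted p = 0.620). Rpl36 had 432 and 397 FPKM after IL-33, and 1204 and 587 FPKM after Ang II (log2 fold change 1.02 ± 0.68 SE, limma adjusted p = 0.775), and the value of replicate 1 was the highest of any member in any library. Rpl9 stood at 29.7 and 28.0 FPKM against 48.7 and 69.7 FPKM. Rpl39, which lines the exit tunnel for the new peptide, stood at 20.5 and 18.6 FPKM against 49.2 and 24.9 FPKM, a log2 fold change of 0.81. That direction did not hold for Rpl39 with its pseudogene copies, as given with the copies.

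Large-subunit genes with lower levels were led by Rpl30, whose Ang II libraries disagreed. Rpl30 stood at 50.02 and 44.1 FPKM after IL-33 and at 2.88 and 28.4 FPKM after Ang II (log2 fold change -2.17 ± 1.92 SE, limma adjusted p = 0.775). Most of its distance came from replicate 1. Rpl18 was lower by a like amount in both: 78.5 and 78.7 FPKM after IL-33 and 38.7 and 34.7 FPKM after Ang II (log2 fold change -1.08 ± 0.30 SE, limma adjusted p = 0.473). Rpl3, which reaches into the peptidyl transferase centre, had 139 and 135 FPKM after IL-33 and 151 and 30.1 FPKM after Ang II, so the groups overlapped and 1 library made the difference. Rpl29 showed the same shape, with 140.27 and 139 FPKM against 130.01 and 41.3 FPKM. Rpl41, the shortest member with a coding sequence of 75 bases, was at 394 and 388 FPKM after IL-33 and at 231 and 257 FPKM after Ang II. Its log2 fold change was -0.68 ± 0.19 (SE), and its limma adjusted p was 0.475 taking IL-33 as 1 sample and 0.0420 with both IL-33 libraries as replicates. The 4 pseudogene rows that copy Rpl41 summed to 744, 744, 486 and 596 FPKM and were lower after Ang II as well.

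The acidic stalk, which recruits elongation factors, is built from Rplp0 and pairs of Rplp1 and Rplp2. Rplp0 stood at 534 and 522 FPKM after IL-33 and at 841 and 570.34 FPKM after Ang II, higher in both libraries (log2 fold change 0.39 ± 0.38 SE). Rplp1, the most abundant member by mean, overlapped between groups at 1025 and 964 FPKM against 989.76 and 712 FPKM. Rplp2 was at 108 and 104 FPKM against 98.0 and 95.4 FPKM, a log2 fold change of -0.13 ± 0.23 (SE), and its groups overlapped once libraries were rescaled to equal FPKM sums. None of the stalk genes passed the test, and their directions were not resolved.

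Further large-subunit genes are named for their level or role, and none passed the test. Rpl35 was at 595 and 587 FPKM after IL-33 and at 799 and 658 FPKM after Ang II. Rpl32 stood at 384 and 368 FPKM against 399 and 395 FPKM. Rpl13a, which also serves in the GAIT complex that silences inflammatory mRNAs in myeloid cells, was at 151 and 153 FPKM against 229 and 131 FPKM, with the Ang II libraries on either side of IL-33.

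In the small subunit, Rps24 had the largest positive log2 fold change. It stood at 11.2 and 11.4 FPKM after IL-33 and at 34.96 and 19.3 FPKM after Ang II, with no overlap (log2 fold change 1.14 ± 0.66 SE, limma adjusted p = 0.775). Rps26, which lies at the mRNA exit channel, was at 81.8 and 78.1 FPKM against 137 and 151 FPKM. Its Ang II libraries lay close together, and the log2 fold change was 0.84 ± 0.23 (SE, limma adjusted p = 0.460). Rps7 stood at 87.4 and 91.3 FPKM against 194 and 133 FPKM, for a log2 fold change of 0.84 ± 0.40 (SE), and Rps21 at 70.4 and 74.9 FPKM against 111 and 97.8 FPKM. Rps6, the subunit protein that S6 kinases phosphorylate downstream of mTORC1, was at 300.4 and 299.8 FPKM after IL-33 and at 510.0 and 333 FPKM after Ang II. Both were higher, the second slightly, and the log2 fold change was 0.46 ± 0.42 (SE, limma adjusted p = 0.775).

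Lower small-subunit genes included Rps27a, made as a fusion with ubiquitin. It was at 146 and 141 FPKM after IL-33 against 128 and 41.5 FPKM, with replicate 2 far below the rest and a log2 fold change of -0.97 ± 1.05 (SE). Rps3, at the mRNA entry channel, stood at 174 and 172 FPKM against 97.7 and 148 FPKM. For Rps13 the values were 60.1 and 45.4 FPKM against 17.3 and 47.0 FPKM, and the groups overlapped. Rpsa, also known as the laminin receptor precursor, overlapped likewise at 76.1 and 77.8 FPKM against 51.0 and 80.9 FPKM.

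Abundant small-subunit genes, Rps27, Rps6, Rps15 and Rps29, ran from 290 to 823 FPKM over all libraries. Of the low genes, Rps12 was at 8.68, 5.52, 25.9 and 4.19 FPKM and Rps15a at 17.7, 15.7, 32.4 and 6.59 FPKM. In both, the Ang II libraries enclosed the IL-33 values.

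Besides Rpl22 and Rpl22l1, paralog pairs kept near the same balance between groups in most libraries. Rpl36al, whose coding sequence is 87.7% identical to that of Rpl36a, held 94.4%, 94.4%, 93.4% and 91.7% of the summed FPKM of its pair. Rps27l, a p53 target whose coding sequence is 76.2% identical to that of Rps27, held 31.9%, 32.6%, 30.9% and 17.5%. Rpl7l1 (53.0% identical to Rpl7) held 22.3%, 22.7%, 46.1% and 21.4%. In each of the last 2 pairs 1 Ang II library stood apart and the other did not, through Rps27l at 139 FPKM in replicate 2 and Rpl7 at 60.2 FPKM in replicate 1. The pseudogene Rpl6l was at 22.7 and 18.2 FPKM after IL-33 and 30.4 and 29.3 FPKM after Ang II, 16.5% to 21.1% of its sum with Rpl6. Rps4x, which has no Y-linked partner in mice, was at 108, 101.32, 70.7 and 143 FPKM, against at most 0.07 FPKM for Rps4l.

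**Figure D4:**
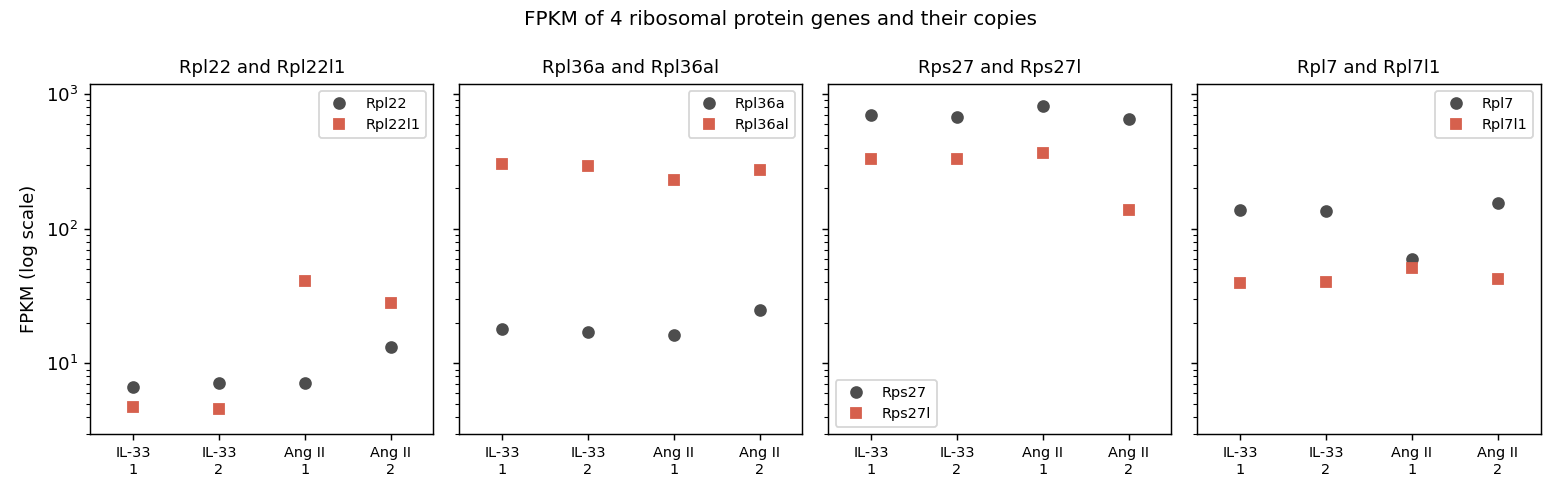
FPKM (y axis, log scale) of 4 ribosomal protein genes (circles) and their copies (squares) in each library (x axis). Rpl22l1 moves from below Rpl22 in the IL-33 libraries to above it in both Ang II libraries, while in the other pairs the order of gene and copy is the same in all 4 libraries.

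Ribosomal protein genes have left many processed pseudogenes in the mouse genome, and reads from a gene and a near-identical copy can be assigned to either. Of the 80 tested protein-coding members, 76 had at least 1 pseudogene row with 90% or more identity over at least 80% of the coding sequence, with a median of 8 such rows and a maximum of 76 for Rpl21. Together 959 such rows summed to 6330.2, 6404.6, 7303.2 and 6132.4 FPKM, against 14159, 13816, 16317 and 13052 FPKM for the members. In 21 members the copies exceeded the gene after IL-33. Some of these were named after their values were seen: Rpl21 had a mean of 22.5 FPKM after IL-33 and its copies 343 FPKM, Rpl7a 26.95 against 252 FPKM, and Rpl17 30.1 against 223 FPKM. The level listed for such a gene is therefore uncertain.

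Copies mostly differed in the same direction as their genes. Among the 69 members with gene and copies at 5 FPKM or more, the log2 fold changes had the same sign in 58 (30 positive, 28 negative). Across these genes, which share libraries and reads with their copies, Pearson's r was 0.48 and Spearman's rho 0.72. Rpl39 was the clearest exception: its copies summed to 111 and 109 FPKM after IL-33 and to 12.6 and 3.98 FPKM after Ang II while the gene's own values were higher. With copies added, its log2 fold change was -1.60 rather than 0.81. The spread of log2 levels between members narrowed when copies were added, from an SD of 1.59, 1.61, 1.61 and 1.55 to 1.41, 1.39, 1.39 and 1.32. The median log2 fold change was 0.19 in members of up to 4 copies (21 genes), 0.07 in those of 5 to 12 (38 genes) and -0.23 in those of 13 or more (21 genes), while Spearman's rho between the number of copies and the log2 fold change was -0.05 across genes.

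**Figure D5:**
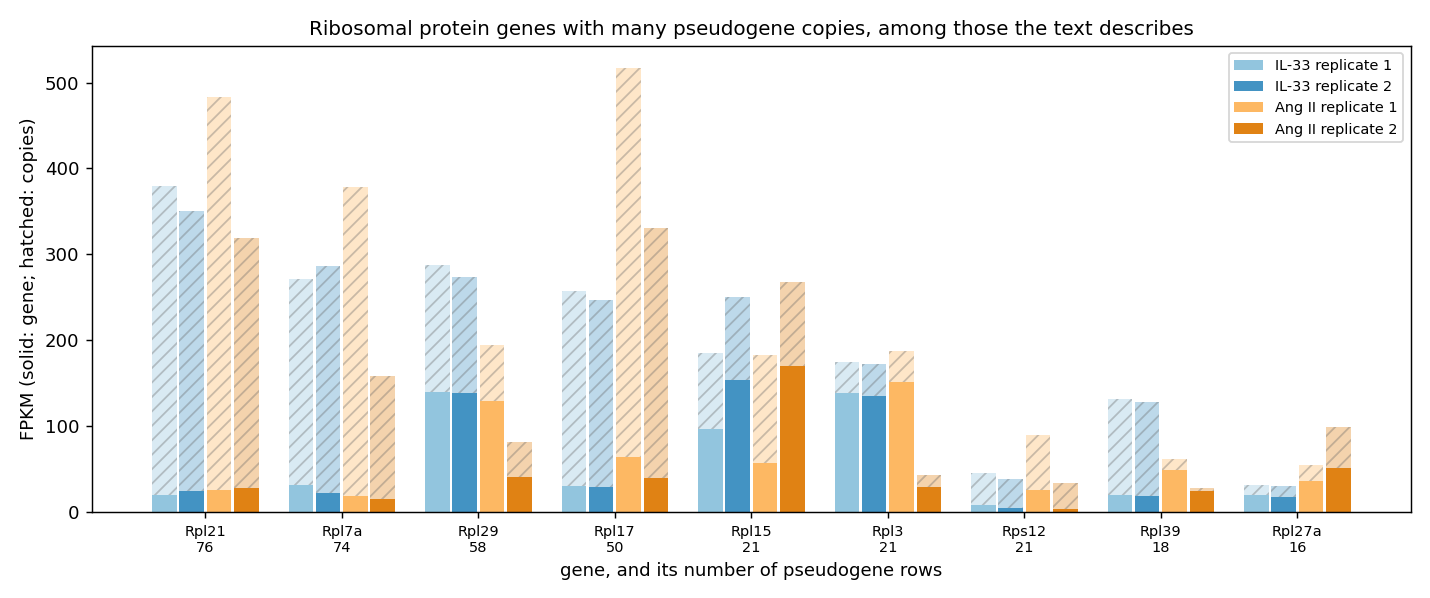
FPKM (y axis) of the gene (solid) and of its pseudogene copies (hatched, stacked on top) in each library for those with most copies among the genes the text describes, with the number of pseudogene rows under each name. For Rpl21, Rpl7a and Rpl17 the copies hold most of the sum in every library, and for Rpl39 they shrink in both Ang II libraries.

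Other features of the genes are given as descriptions. A small nucleolar RNA, which guides rRNA modification and is processed from an intron, lay inside 29 of the 82 tested members (35.4%), against 159 of all genes tested (1.73%). The median log2 fold change was -0.10 in these hosts and 0.10 in the 53 members without one. Coding lengths ran from 75 bases in Rpl41 to 1257 bases in Rpl4 with a median of 453, and Spearman's rho with the log2 fold change was -0.14 across genes. Members lay on 19 chromosomes, 15 of them on chromosome 7.

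The 7 subunit and ubiquitin-fusion genes outside the name rule were higher in both Ang II libraries in 4 cases and lower in 0, with a median log2 fold change of 0.47. By limma 0 passed the adjusted threshold, and 0 an unadjusted p of 0.05. They included Fau, which encodes a ubiquitin-like fusion of Rps30, Rps27rt and the polyubiquitin gene Ubb. Fau was at 185 and 197 FPKM after IL-33 and at 449 and 297 FPKM after Ang II. Rps3a1 stayed at 415 and 399.86 FPKM against 409.58 and 425 FPKM, with overlap.

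Genes that build or regulate ribosomes were counted in the same way, and in each list 0 passed the adjusted threshold by limma. For comparison, 24.4% of all genes tested were higher and 33.5% lower in both. Of 40 tested ribosome biogenesis factors (46 listed), 11 lay above and 16 below both IL-33 values in each Ang II library, and the median log2 fold change was -0.23. For 19 tested subunits and factors of RNA polymerases I and III, which make rRNA and tRNA, the counts were 7 and 6 and the median was 0.26. Among 19 other mRNAs with a TOP tract, 9 were higher and 7 lower, with a median of 0.07. Eef1a1, the elongation factor that carries tRNAs to the ribosome, was at 380 and 372 FPKM after IL-33 and at 579 and 503 FPKM after Ang II, and Btf3, Tpt1 and Npm1 were likewise higher in both. These 4 lead the list by a mean that includes the Ang II libraries. Eef2, above Npm1 and Btf3 by its IL-33 level and named after its values were seen, was lower in both, at 108 and 109.95 FPKM against 76.3 and 44.4 FPKM. In 12 tested regulators of TOP mRNAs and S6 kinases (23 listed) the counts were 3 and 4 (median 0.14). Those too low to be tested included Mtor, at 0.01 FPKM or less in every library, and Larp1, at 0.04, 0.01, 0.02 and 1.91 FPKM. In 14 tested assembly chaperones of single ribosomal proteins (19 listed) the counts were 2 and 4 (median -0.42), and in 19 genes that cells in general use 4 and 7 (median -0.07). The ILC2 marker list had 5 higher and 1 lower of 15 tested (median 0.15). At an unadjusted p under 0.05 there were 4 biogenesis factors, 2 polymerase genes, 1 TOP regulator and 1 general gene, named after their values were seen. In each list this was a smaller share than the 13.6% of all genes tested, of which most were lower. The biogenesis factors were Dkc1, the pseudouridine synthase of rRNA (29.7 and 29.5 FPKM after IL-33, 0.03 and 0.05 FPKM after Ang II), the rRNA acetyltransferase Nat10 (13.1 and 12.8 FPKM, 0.01 and 0 FPKM), and Riok2 and Tsr1, which mature the small subunit. The others were Polr3d, Taf1c, Tsc1 and Polr2a. All 8 were lower in both Ang II libraries, at under 0.5 FPKM each, with limma adjusted p of 0.174 to 0.247. Among the tested ribosomal protein genes the lowest value in any library was 2.68 FPKM.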

How the data were processed

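The authors deposited FPKM per gene with 2 decimals, per the file headers; the submitters' processing notes name mm10, HISAT, StringTie and edgeR, without versions or roles, and the annotation is not given in the sources used here. The protocols mention no UMIs, which leaves amplification duplicates in the values. The ribosomal protein genes, the gene lists and the tests were chosen with earlier results of these data known. The 4 libraries entered as 3 columns, with the IL-33 mean as 1 sample. Genes averaging 1 FPKM or more were tested on log2(FPKM + 1) with limma 3.58.1 (R 4.3.3; lmFit, eBayes with trend, 1 residual degree of freedom), two-sided, with Benjamini-Hochberg adjustment over 9215 genes. This assumes that a single IL-33 sample varies like the Ang II pair. Fold changes on this scale are compressed for genes of low level. The design had provided for this counting of the IL-33 libraries. Identifiers were looked up in GENCODE M21 (GRCm38; 55141 of 55401 found). Pseudogene copies were found with BLAST+ 2.17.0. Start-site sequences come from RefSeq (GRCm38.p6; 64 of 87 symbols matched). Named were the 5 highest, 5 lowest, 5 most raised and 5 most lowered members of each subunit, members at 0, paralog pairs, Rplp0, Rplp1, Rplp2, Rpsa, Rps6, Rps27a and Rpl13a, and up to 4 abundant genes of each list; some of these are not reported here. The script was tested on simulated data.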

Additional observations from a re-analysis of the deposited data

How the results depend on the processing

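The count of ribosomal protein genes past the adjusted threshold was 0 under every alternative that gave a test except with both IL-33 libraries as replicates, where it was 3 (Rpl22l1, Rpl8 and Rpl41). The large-subunit median log2 fold change was 0.18 with libraries rescaled to equal FPKM sums and 0.0325 with median-ratio scaling, and 0.0529 to 0.109 with 1 library left out. The small-subunit median was -0.164 to 0.160 with 1 library left out, and positive only without Ang II replicate 2. The Ang II minus IL-33 difference in the large-minus-small median was -0.0011 with rows named as pseudogenes added, 0.0589 with sequence copies added and -0.23 to -0.05 with 1 library left out. The difference in the members' percent of FPKM was 0.0605 to 0.584 percentage points with 1 library left out, against 0.322 with all and 0.146 without haemoglobin genes. Adding sequence copies and leaving out Rpl36 were chosen after seeing the data. Rpl39 reversed to -1.60 with sequence copies added, and the ratio of large to small sums reversed, with an Ang II minus IL-33 difference of -0.0285 without Rpl36; the cause was not tested. Over 82 genes and their alternatives, 1221 of 1227 single-gene values kept their side of the threshold. They also kept their direction or moved by less than the spread. That spread was wide, so the count does not show that directions held. For example, Rpl15 is among them at 0.439 without Ang II replicate 1 and -1.115 without Ang II replicate 2. With the replicate number as a block, 0 genes passed and the medians were 0.11 and -0.11. Deviations of same-numbered libraries correlated at -0.02 over 9215 genes. Because the IL-33 pair differed by about counting noise, this value cannot show whether same-numbered libraries were paired. Without an Ang II library no error could be estimated and only fold changes were computed. The unknown depth and the spread of the 2 Ang II libraries limit every call.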
